A study of Mus musculus with 9 samples.

Results

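CTCF was mapped by chromatin immunoprecipitation and sequencing (ChIP-seq) in female primary mouse neural stem cells (NSCs), and the promoter peaks of protein-coding genes were taken from the merged peaks of that experiment. A promoter peak was a merged peak on chromosomes 1 to 19 that lay within 1000 bp of a transcription start of a protein-coding gene in the GENCODE M21 annotation (mouse build GRCm38). Genes whose symbols begin with Zfp, Olfr, Vmn or Hox were left out. The rule found 17749 peaks, 7.86% of the 225769 merged peaks and 8.17% of those on the autosomes, at 11705 of the 18898 genes that could have had one (61.9%). The remaining 199381 autosomal peaks served for comparison. These included 723 peaks within 1000 bp of a left-out gene only.

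NSCs came from C57Bl/6 cortices at E14.5 of embryonic development and were grown as adherent cultures. *MommeD43-GFP* cells were homozygous for a *Smchd1* point mutation, recreated by genome editing on an allele that also carried a GFP tag (3 libraries). *Smchd1* del/del cells were made by transducing floxed cells with a retrovirus carrying Cre and a puromycin resistance gene, followed by drug selection, and had no GFP tag (2 libraries). Control cells were *Smchd1* GFP/GFP, with the tagged but otherwise intact gene (3 libraries). In *Smchd1* del/del cells the deletion, the retrovirus, the selection and the missing tag cannot be told apart. A whole cell extract was also sequenced and is not analysed here.

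CTCF is a zinc finger protein that binds DNA through a long motif with a conserved core. It stops the loop-extruding cohesin complex on chromatin, so pairs of CTCF sites in convergent orientation often anchor chromatin loops. At promoters it can bring an enhancer into contact with a gene, shield the gene from one, or sit close to the start without any loop, as at many CpG-rich promoters of ubiquitously used genes. SMCHD1 is a non-canonical SMC protein that takes part in silencing of the inactive X, imprinted genes and clustered gene families, and cells that lack it are known to differ in chromatin looping. The experiment asks whether CTCF occupancy differs when SMCHD1 is mutated or absent.

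The sequences below come from promoter peaks that held a core CTCF match, and do not stand for promoter peaks in general. Of the 15 promoter peaks with the highest level per kb, 1 held such a match. Promoter peaks of at most 3000 bp that held exactly 1 core match were ranked by level per kb, with 1 autosome left out. Shown, in order, are the 7 highest of those ranked. Each is a 30-base window, read 5′ to 3′ on the strand of the match, with the 12-base match to the core CTCF motif in capitals.
Nsfl1c: acataggggCCACCAGAGGGCgcgaggcgg
Fam133b: tcctccgcaCCACCAGGGGGCgccgtggcg
Rint1: gacatccaaCCAGCAGGGGGCgccacagaa
Dennd6b: ccgggtcggCCAGTAGGTGGCtagtgtggc
Noc3l: ggaccagagCCACCAGGGGGCgcacgcacc
Ints7: tagctgccgCCACTAGGTGGCgccactccc
Gm45844: tctctgtcaCCACCAGGTGGCgacagagag

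The *Nsfl1c* window lies at chr2:151494113-151494142 on the plus strand of GRCm38, the *Fam133b* window at chr5:3543757-3543786 (plus), the *Rint1* window at chr5:23787618-23787647 (plus) and the *Dennd6b* window at chr15:89196634-89196663 (plus). The *Noc3l* window lies at chr19:38819278-38819307 on the minus strand, the *Ints7* window at chr1:191575985-191576014 (minus) and the *Gm45844* window at chr7:7278497-7278526 (minus). The matches of 6 windows fell in no annotated gene, at −55 bp (*Nsfl1c*), −62 bp (*Fam133b*), −79 bp (*Rint1*), −152 bp (*Dennd6b*), −55 bp (*Noc3l*) and −222 bp (*Gm45844*) from the nearest start, where minus means upstream. The *Ints7* match lay in an intron, 223 bp downstream of the start. *Nsfl1c* encodes a cofactor of the p97 ATPase, *Rint1* a vesicle tethering factor, *Noc3l* a nucleolar protein of ribosome assembly and *Ints7* a subunit of the Integrator complex. The same 12 bases, CCACCAGGGGGC, stood at *Fam133b* and *Noc3l*.

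A level is the log2 number of reads per M of a peak, averaged over the libraries of a genotype, as deposited, and is not divided by peak length. There was 1 such column per genotype, so differences between genotypes have no replicate error and no test. In its place each difference is given with its counting error, the error expected from the number of reads alone, which leaves out the spread between cultures. The read numbers were recovered from the whole-read steps of low values and gave library sizes of 49.2 M reads in *MommeD43-GFP*, 49.98 M in *Smchd1* del/del and 41.7 M in control (geometric means). At the median level of the promoter peaks a library held 94.5 reads per peak in *MommeD43-GFP*, 96.0 in *Smchd1* del/del and 81.2 in control. The counting error of a level was then 0.09 in *MommeD43-GFP*, 0.10 in *Smchd1* del/del and 0.09 in control on the log2 scale.

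Promoter peaks were longer and held more reads than other peaks. Their median level was 0.94 in *MommeD43-GFP*, 0.94 in *Smchd1* del/del and 0.96 in control, while the other autosomal peaks had −0.54 in *MommeD43-GFP*, −0.58 in *Smchd1* del/del and −0.52 in control. The median length was 1650 bp in promoter peaks and 750 bp in other peaks, and the longest promoter peak reached 60300 bp. Distance was measured from the edge of a peak, so the rule itself favours long peaks. Length likewise favours holding a start, holding starts on both strands and reaching several genes. Promoter peaks covered 44.9 Mb, 17.5% of the bases in autosomal peaks, and held 21.4% of the reads in those peaks in *MommeD43-GFP*, 21.5% in *Smchd1* del/del and 22.3% in control. When divided by length, the median over the 3 columns was 0.21 log2 reads per M per kb in promoter peaks and −0.04 in other peaks, so most of the gap in level went with length.

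The remaining difference was seen at matched length up to 3000 bp (each length class includes its upper limit). Among peaks of up to 600 bp the median level over the 3 columns was −1.07 in 2810 promoter peaks and −1.18 in other peaks. Between 900 and 1500 bp it was 0.38 in 3381 promoter peaks and 0.20 in other peaks, and between 1500 and 3000 bp it was 1.51 in 4343 promoter peaks and 1.21 in other peaks. Above 10000 bp the 472 promoter peaks had 4.53 and the other peaks 4.47. The 300 bases at the peak centre had a median GC content of 50.3% in promoter peaks and 48.7% in other peaks, and a CpG ratio (observed over expected CpG) of 0.27 in promoter peaks and 0.18 in other peaks.

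**Figure D1:**
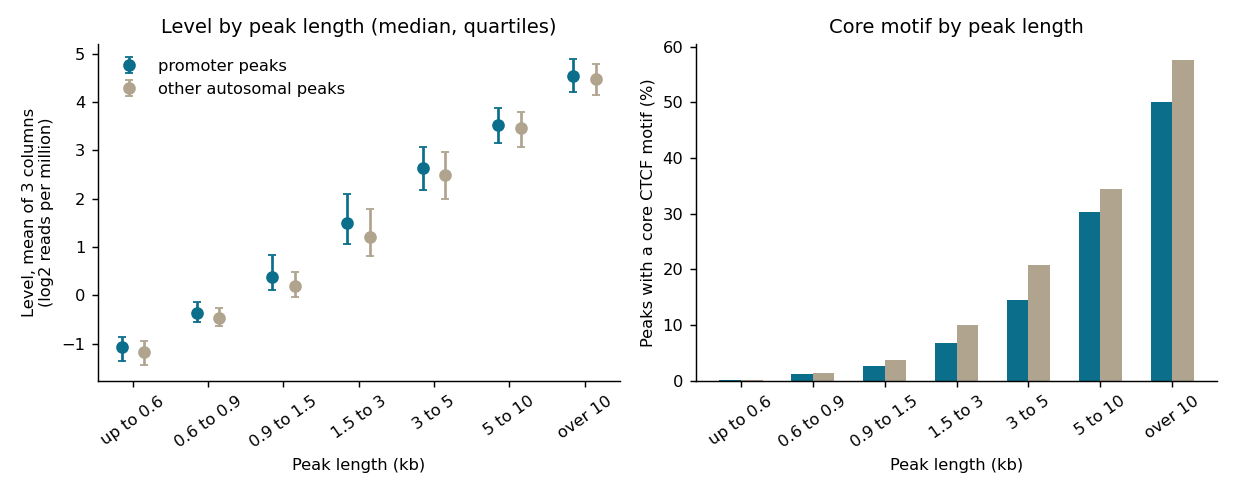
Level (left, median of the mean of the 3 columns with quartiles, log2 reads per M) and share of peaks with a core CTCF motif (right, percent) by peak length in kb, for promoter peaks and other autosomal peaks. Between 1500 and 3000 bp the median level was 1.51 in promoter peaks and 1.21 in other peaks, while the motif stood in 6.72% of promoter peaks and 10.1% of other peaks.

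The peak lay over the start at 10880 promoter peaks (61.3%), and the others were a median of 483 bp away. Peaks over a start had a median level of 1.67 and a median length of 2250 bp. The 3534 peaks that lay 1 to 500 bp from a start had −0.06 and 900 bp, and the 3335 that lay farther away also had −0.06 and 900 bp. The peaks that held a start thus stood apart in level, while those beside it did not differ with distance. Most of this gap went with length, and a longer peak is itself more likely to hold a start. Divided by length, the medians were 0.39 per kb over a start, 0.07 at 1 to 500 bp and 0.03 farther away. The 696 peaks in the last 100 bp inside the limit had a median level of −0.11, and the 602 peaks in the first 100 bp outside it had −0.06. Where a peak held starts on both strands, as at divergent gene pairs, the median level of the 468 peaks was 2.65. Their median length was 3225 bp and their median per kb 0.75.

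Most genes had a single promoter peak (7275 of 11705), 2763 genes had 2 and 1667 had 3 or more. *Fry*, which encodes a scaffold of a conserved kinase pathway, had 12 peaks over its alternative starts. *Dst*, encoding a large cytoskeletal linker, had 11, and *Clasp1* (a microtubule plus-end protein) and *Ttn* (titin) had 10 each. Conversely, 1084 peaks (6.11%) lay within reach of 2 or more genes.

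The highest promoter peaks were broad, and 8 of the 15 highest lay at 2 or more genes. The peak over *Mroh2a* and *Hjurp*, which encodes the chaperone that loads the centromeric histone CENP-A, had 7.38 in *MommeD43-GFP*, 7.16 in *Smchd1* del/del and 7.50 in control, over 45750 bp. The peak over *Espn*, *Hes2* and *Tnfrsf25* had 7.03 in *MommeD43-GFP*, 6.88 in *Smchd1* del/del and 7.01 in control, over 60300 bp. *Espn* encodes an actin-bundling protein of hair cell stereocilia. The 15 highest had a median length of 19350 bp, 14 of them held a start and 9 held a core match. They included *Dagla* and *Myrf* (a lipid signalling enzyme and a myelin regulator), *Pink1* (the mitochondrial quality control kinase), *Smug1* (a uracil DNA glycosylase), *Cebpb* (a bZIP transcription factor) and *Mmp9* with *Slc12a5* (a gelatinase and the neuronal potassium-chloride cotransporter).

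The peaks differed in form. *Sfi1*, which encodes a centrin-binding protein, had 6.50 in *MommeD43-GFP*, 6.35 in *Smchd1* del/del and 6.53 in control in only 6000 bp, and thus the highest level per kb of all promoter peaks (3.87). Repeat-masked bases made up 41.2% of it, and it held no core match. *Cebpb* had 5.62 in *MommeD43-GFP*, 5.57 in *Smchd1* del/del and 5.65 in control over 17100 bp, with the nearest core match at −241 bp from a start. After *Sfi1*, level per kb was highest at *Exd1* and *Chp1* (3.74), *Sh3glb1* (3.10) and *Nsfl1c* (2.87), the peak whose motif is printed above.

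Among the 500 highest promoter peaks, those with the smallest range over the 3 columns were at *Tbc1d22a*, *Ptges*, *Dmwd*, *Gpr157* and *Ccn5*. *Tbc1d22a* had 4.73 in *MommeD43-GFP*, 4.72 in *Smchd1* del/del and 4.73 in control. *Ptges*, the inducible prostaglandin E synthase, had 4.91 in *MommeD43-GFP*, 4.92 in *Smchd1* del/del and 4.92 in control. Both ranges were smaller than the counting error of about 0.03 on a difference.

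The core CTCF motif, searched by its 12-base consensus on both strands, was found in 1526 promoter peaks (8.598%) and in 3.41% of other autosomal peaks. This order was reversed at matched length. In peaks between 900 and 1500 bp the share was 2.60% in promoter peaks and 3.70% in other peaks, between 1500 and 3000 bp it was 6.72% in promoter peaks and 10.1% in other peaks, and between 3000 and 5000 bp 14.49% in promoter peaks and 20.7% in other peaks. Promoter peaks with a match had a median length of 5100 bp, a level of 3.31 and 0.93 per kb, against 1500 bp, 0.73 and 0.15 per kb in promoter peaks without one. A single match was found in 1393 peaks, 2 in 122 and 3 or more in 11. The *Eif3b* peak (chr5:140434651-140441400), at the gene of a translation initiation factor subunit, held 15 matches, and the *Pink1* peak held 4.

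The 12-base matches were spread over several forms. CCAGCAGAGGGC made up 260 of the 1683 matches in promoter peaks (15.4%) and 16.6% of those in other peaks. CCAGCAGGGGGC made up 12.1% in promoter peaks and 8.95% in other peaks, and CCACCAGGGGGC made up 11.5% in promoter peaks and 7.27% in other peaks. CCACTAGATGGC had the opposite order, with 3.09% of the matches in promoter peaks and 5.63% in other peaks. Whole peaks had a median GC content of 50% at promoters and 47.7% elsewhere, and its part in these shares was not tested.

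Matches were densest just upstream of the start. For the density each peak was given 1 start, one that it held or lay nearest to. Over the sequence of the promoter peaks there were 57.7 matches per Mb in the 250 bases before the start (152 matches). In the 250 bases from the start on there were 21.6 per Mb (59 matches). The other bins of the density plot lay between these values. The counts of peaks that follow use the start nearest to the match instead. Of the peaks with a match, 193 had their nearest one 1 to 250 bp upstream of the start and 85 within 250 bp downstream. Over all distances the sides were close in number, with 783 peaks upstream and 743 downstream, and 52.8% of the nearest matches lay on the strand of the gene. A match is a description of letters and not evidence of a bound site.

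**Figure D2:**
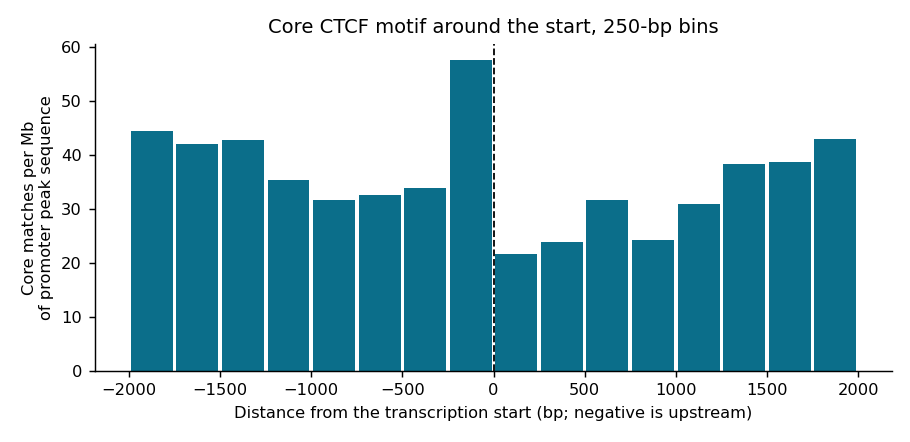
Density of core CTCF motif matches in promoter peak sequence (matches per Mb, vertical axis) by distance from the nearest transcription start in 250-bp bins (horizontal axis, negative upstream). The bin from 250 bp upstream to the start held 57.7 matches per Mb and the next bin downstream 21.6.

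Short peaks with a match were centred on it. In promoter peaks between 600 and 900 bp, 81.3% of the 32 matches lay within 150 bp of the peak centre, a window that covers 36.6% of the length. Between 900 and 1500 bp this was 44.4% of 90 matches in a window of 23.8% of the length, and between 1500 and 3000 bp 26.1% of 295 matches in 12.7%.

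In *MommeD43-GFP* against control, promoter peaks differed little in the deposited values and spread less than other peaks. The median difference was −0.05 in promoter peaks and 0.01 in other autosomal peaks, and 93.4% of promoter peaks lay within 1.5-fold. The SD across peaks was 0.32 in promoter peaks and 0.43 in other peaks. At least 2-fold higher were 122 promoter peaks (0.687%), against 2.08% of all peaks, and at least 2-fold lower were 52 (0.293%), against 0.718% of all peaks. After quantile normalization of the columns these counts were 84 higher and 87 lower. The 122 higher ones had a median level of −1.67 and 92 of them were 600 bp or shorter, where few reads were counted. Level here and in the comparisons that follow is the mean of the 2 columns compared, so a peak can enter through the column in which it is high. Among the 8875 promoter peaks at or above the median of that mean, 0 were 2-fold higher, against 0.0213% of all peaks at that level, and 1 was 2-fold lower, against 0.00534%. The cultures were measured in bulk, so a lower level in every cell and a loss in some of the cells cannot be told apart.

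That peak lay over the start of *Gm45844*, a gene to which no role is given here, at chr7:7277401-7278900. It had 1.71 in *MommeD43-GFP*, 3.66 in *Smchd1* del/del and 3.17 in control, so *MommeD43-GFP* was 2.75-fold lower than control (−1.46 ± 0.08, counting error). *Smchd1* del/del was on the other side of control at this peak (0.50 ± 0.06). The next lowest of the well-covered peaks differed by less than 2-fold. *Kxd1*, for a subunit of a complex that positions lysosomes, had 0.59 in *MommeD43-GFP*, 0.81 in *Smchd1* del/del and 1.51 in control (−0.92 ± 0.12 in *MommeD43-GFP* against control). *Rab1a*, the GTPase of transport from the endoplasmic reticulum to the Golgi, had 1.26 in *MommeD43-GFP*, 1.45 in *Smchd1* del/del and 1.97 in control (−0.71 ± 0.10).

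Regulators stood in the same group of 10. *Mdm2*, the ubiquitin ligase of p53, had 1.24 in *MommeD43-GFP*, 1.39 in *Smchd1* del/del and 1.95 in control. *Pou2f1*, encoding the octamer-binding factor OCT1, had 0.68 in *MommeD43-GFP*, 0.55 in *Smchd1* del/del and 1.40 in control, and was among the 10 lowest in both mutants. *Irx1*, a homeobox regulator, had 0.84 in *MommeD43-GFP*, 1.73 in *Smchd1* del/del and 1.55 in control, so only the *MommeD43-GFP* value was below control. The others were *Dpys*, *Ankrd33b*, *Atl3* and *Ufl1*. Of these 10 peaks, 9 held a start and 8 had a CpG ratio above 0.7 at the centre. Over all promoter peaks 61.3% held a start and the median ratio was 0.27.

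The 10 promoter peaks furthest above control in *MommeD43-GFP* differed from the 10 furthest below in CpG ratio and in how many held a start. All had a CpG ratio of at most 0.4, 3 held a start, and a median of 34.1% of their bases were repeat-masked. Low CpG ratios were usual, with 6254 of the 17749 promoter peaks under 0.2 and 6090 at 0.2 to 0.4. The median repeat-masked share over all promoter peaks was 12.99%. *Rims3*, a synaptic active zone protein, had 1.5 in *MommeD43-GFP*, 1.29 in *Smchd1* del/del and 0.64 in control (0.86 ± 0.13 in *MommeD43-GFP* against control). *Kcnk4*, a mechanically gated potassium channel, had 3.04 in *MommeD43-GFP*, 2.78 in *Smchd1* del/del and 2.29 in control (0.75 ± 0.07). *Cdh10*, a neuronal cadherin, had 2.11 in *MommeD43-GFP*, 2.29 in *Smchd1* del/del and 1.38 in control. All 10 were above control in *Smchd1* del/del too, a comparison that shares the control column. The rest were at *Myh14*, *Lsm2*, *Cwf19l2*, *Ncapd3*, *Csmd3*, *Dhx9* and *Clpb*.

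**Figure D3:**
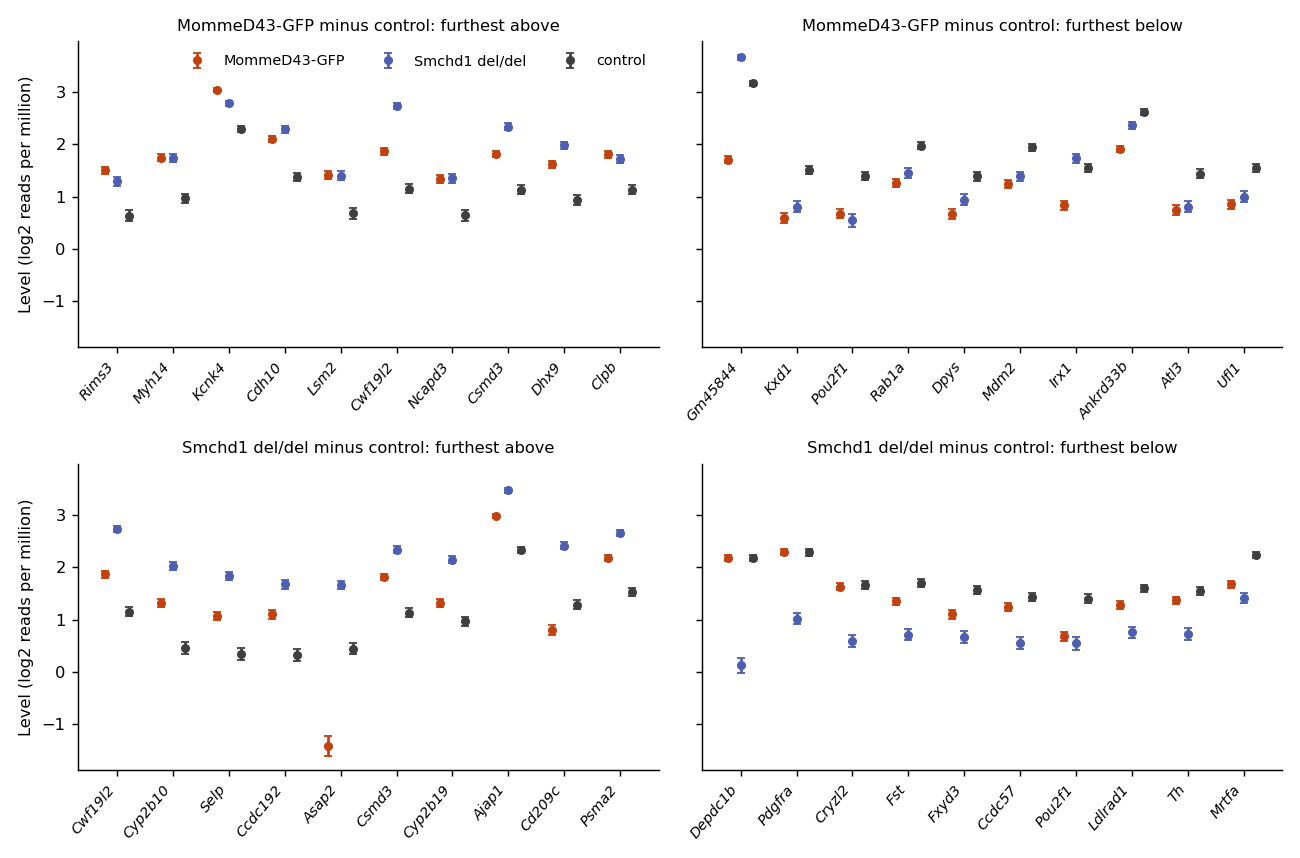
Levels (log2 reads per M, with counting error bars) in *MommeD43-GFP*, *Smchd1* del/del and control of the 10 promoter peaks furthest above and the 10 furthest below control in each mutant, limited to peaks whose mean of the columns compared reached the members' median of that mean. Of the 10 furthest below control in *MommeD43-GFP*, *Gm45844* alone was 2-fold lower, whereas *Depdc1b*, *Pdgfra* and *Cryzl2* were 2-fold below control in *Smchd1* del/del.

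In *Smchd1* del/del against control the spread was wider. The median difference was −0.05 in promoter peaks and −0.04 in other autosomal peaks, the SD across peaks was 0.39 in promoter peaks and 0.51 in other peaks, and 88.8% of promoter peaks lay within 1.5-fold. The sign of this median depended on the scaling, since it was 0.01 once each column was centred on its median over all peaks. At least 2-fold higher were 254 promoter peaks (1.43%), against 3.31% of all peaks, and at least 2-fold lower were 132 (0.744%), against 1.85% of all peaks. At or above the median level of promoter peaks, 20 were 2-fold higher (0.225%), against 1.14% of all peaks at that level, and 3 were 2-fold lower (0.0338%), against 0.032%. The higher ones were thus a smaller share of promoter peaks than of all peaks of similar level, and the lower ones a share near the background.

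The 3 lower ones were at *Depdc1b*, *Pdgfra* and *Cryzl2*. *Depdc1b*, which encodes a regulator of cell proliferation and adhesion, had 2.17 in *MommeD43-GFP*, 0.12 in *Smchd1* del/del and 2.18 in control at chr13:108315601-108317100. *Smchd1* del/del was 4.17-fold lower than control there (−2.06 ± 0.15), and the peak held a start with a CpG ratio of 0.89. *Pdgfra*, the receptor for platelet-derived growth factor that marks oligodendrocyte precursors, had 2.3 in *MommeD43-GFP*, 1.02 in *Smchd1* del/del and 2.28 in control at chr5:75149551-75151950 (−1.26 ± 0.12). *Cryzl2* had 1.63 in *MommeD43-GFP*, 0.58 in *Smchd1* del/del and 1.66 in control (−1.07 ± 0.14). At all 3 the *MommeD43-GFP* value lay within the counting error of control.

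The following peaks were less than 2-fold lower. *Fst*, which encodes the activin antagonist follistatin, had 1.35 in *MommeD43-GFP*, 0.71 in *Smchd1* del/del and 1.7 in control (−0.99 ± 0.13 in *Smchd1* del/del against control). *Th*, the rate-limiting enzyme of dopamine synthesis, had 1.37 in *MommeD43-GFP*, 0.72 in *Smchd1* del/del and 1.55 in control (−0.83 ± 0.13). *Mrtfa*, an actin-regulated transcriptional coactivator, had 1.67 in *MommeD43-GFP*, 1.41 in *Smchd1* del/del and 2.23 in control. None of the 10 lowest held a core match, and over all promoter peaks the share was 8.598%, so this count was near that share.

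Of the 10 promoter peaks furthest above control in *Smchd1* del/del, all were more than 2-fold higher and all had a CpG ratio of at most 0.4. Such ratios were common, as 6254 of the 17749 promoter peaks lay under 0.2 and 6090 at 0.2 to 0.4. *Cwf19l2*, a homologue of a yeast splicing factor, had 1.86 in *MommeD43-GFP*, 2.73 in *Smchd1* del/del and 1.15 in control at chr9:3402901-3404100 (1.58 ± 0.10 in *Smchd1* del/del against control). *Cyp2b10*, a xenobiotic-inducible liver cytochrome P450, had 1.31 in *MommeD43-GFP*, 2.02 in *Smchd1* del/del and 0.46 in control (1.56 ± 0.13). *Selp*, the adhesion molecule P-selectin of platelets and endothelium, had 1.07 in *MommeD43-GFP*, 1.83 in *Smchd1* del/del and 0.34 in control. *Ajap1*, for a protein of adherens junctions, had 2.99 in *MommeD43-GFP*, 3.47 in *Smchd1* del/del and 2.32 in control over 5400 bp (1.15 ± 0.07). The 10 were picked for a high *Smchd1* del/del and a low control value, which by itself favours a *MommeD43-GFP* value between them. At 8 of the 10, *MommeD43-GFP* was above control as well and below *Smchd1* del/del.

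The exceptions were *Asap2* and *Cd209c*. *Asap2*, an Arf GTPase-activating protein, had −1.42 in *MommeD43-GFP*, 1.66 in *Smchd1* del/del and 0.44 in control. It was named through its high *Smchd1* del/del column, and its *MommeD43-GFP* minus control difference (−1.86 ± 0.22) was larger than that of *Gm45844* but fell below the level limit of that comparison. *Cd209c*, a C-type lectin of the DC-SIGN family, had 0.80 in *MommeD43-GFP*, 2.41 in *Smchd1* del/del and 1.29 in control. *Asap2* lies in a stretch of chromosome 12, from 18 to 28 Mb, that held 31 promoter peaks. Their median *MommeD43-GFP* minus control difference was −0.19. Of the 31, 5 were 2-fold lower (16.1%), against 0.293% of all promoter peaks and 0.718% of all peaks. A stretch of chromosome 15, from 30 to 40 Mb, gave the same median over 57 promoter peaks, with 3 of them 2-fold lower (5.26%). It holds *Ankrd33b* and *Dpys*, 2 of the 10 lowest in *MommeD43-GFP*. Both stretches were set with earlier results of these data known. Their shares therefore describe them and are no independent evidence of a local difference.

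Core matches were also found in some of the peaks named for a difference. Of these, 3 windows are shown as above, so that the sites can be set beside those printed there.
Csmd3: tggagatggCCAGTAGATGGCgcaagaact
Clpb: gcctgaaggCCAGTAGAGGGCaccagatct
Serpinb1b: tcctcattaCCACTAGGTGGCactcatttg

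These windows lie at chr15:48792898-48792927 (minus strand), chr7:101662195-101662224 (plus) and chr13:33079636-33079665 (minus) of GRCm38. The *Csmd3* match, near a large synaptic membrane protein gene, stood at −849 bp from a start in no annotated gene. Its peak had 1.82 in *MommeD43-GFP*, 2.34 in *Smchd1* del/del and 1.13 in control. The *Clpb* match, at the gene of a mitochondrial disaggregase, stood at −1424 bp, and its peak had 1.81 in *MommeD43-GFP*, 1.73 in *Smchd1* del/del and 1.13 in control. The *Serpinb1b* match lay in an intron 1075 bp downstream of a start of this protease inhibitor gene, and its peak had 2.13 in *MommeD43-GFP*, 3.09 in *Smchd1* del/del and 2.25 in control.

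In the direct comparison of *MommeD43-GFP* with *Smchd1* del/del, the median difference was −0.01 in promoter peaks and 0.04 in other autosomal peaks, and 93.2% of promoter peaks lay within 1.5-fold. The promoter median was −0.04 once each column was centred on its median over all peaks and 0.01 after quantile normalization. At least 2-fold higher were 75 promoter peaks (0.423%), against 1.26% of all peaks, and 91 were at least 2-fold lower (0.513%), against 1.08% of all peaks. At or above the median level, 4 were 2-fold higher (0.0451%), against 0.0287% of all peaks at that level. They were at *Depdc1b* (2.05 ± 0.15), *Pdgfra* (1.28 ± 0.12), *Cryzl2* (1.04 ± 0.14) and *Creb3l1*. *Creb3l1*, encoding a membrane-bound transcription factor of the unfolded protein response, had 1.73 in *MommeD43-GFP*, 0.54 in *Smchd1* del/del and 1.34 in control.

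In the other direction 6 peaks were 2-fold lower (0.0676%), against 0.17% of all peaks at that level. The largest differences were at *Gm45844* (−1.96 ± 0.08) and *Cd209c* (−1.62 ± 0.11). *Pcdhb11*, a clustered protocadherin, had 1.01 in *MommeD43-GFP*, 2.40 in *Smchd1* del/del and 1.46 in control. *Asb4*, an imprinted gene for a ubiquitin ligase adaptor, had 0.68 in *MommeD43-GFP*, 1.77 in *Smchd1* del/del and 0.11 in control, and passed the level limit here through its *Smchd1* del/del column. *Smarca2*, the BRM ATPase of the BAF remodelling complex, had 0.62 in *MommeD43-GFP*, 1.7 in *Smchd1* del/del and 0.79 in control. *Lair1*, an inhibitory immune receptor, had 1.44 in *MommeD43-GFP*, 2.51 in *Smchd1* del/del and 1.39 in control.

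**Figure D4:**
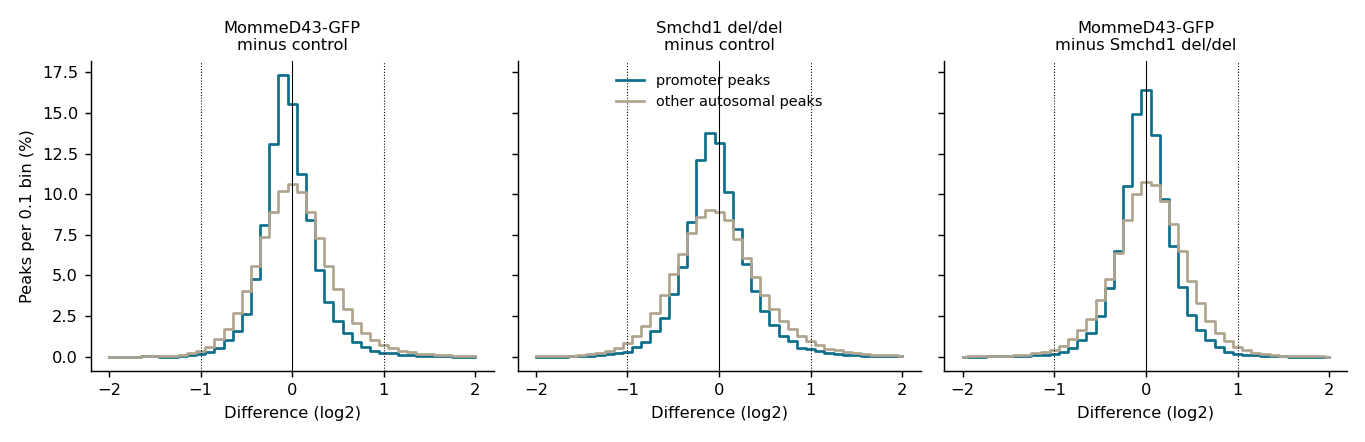
Distribution of the differences between genotype columns (horizontal axes, log2) over promoter peaks and other autosomal peaks, as percent of peaks per 0.1 bin (vertical axis). Dotted lines mark 2-fold. Promoter peaks were narrower in each comparison, with an SD of 0.32 in *MommeD43-GFP* minus control and of 0.39 in *Smchd1* del/del minus control.

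The narrower spread of promoter peaks went with their level. Between levels of 0 and 1 the SD of the *MommeD43-GFP* minus control difference was 0.29 in promoter peaks and 0.31 in other peaks, with a median counting error of 0.15 in promoter peaks. At a level of 3 and over it was 0.12 in promoter peaks and 0.13 in other peaks, with a counting error of 0.05. Between levels of 1 and 2, 14 of 3122 promoter peaks were 2-fold higher in *Smchd1* del/del than in control (0.448%), against 1.90% of the other autosomal peaks. The share at levels below −1 was 8.03% in promoter peaks and 7.44% in other peaks.

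Apart from *Depdc1b*, the largest differences of any level were found at peaks below the median level of promoter peaks. *Depdc1b* was furthest above in *MommeD43-GFP* against *Smchd1* del/del at any level (2.05 ± 0.15). *Gstcd*, at a peak of 600 bp, had −0.78 in *MommeD43-GFP*, −1.01 in *Smchd1* del/del and −4.48 in control. *Nptn*, for the synaptic adhesion protein neuroplastin, had −2.33 in *MommeD43-GFP*, −0.62 in *Smchd1* del/del and −4.32 in control. On the lower side, *5730507C01Rik*, in the chromosome 12 stretch, had −5.00 in *MommeD43-GFP*, 0.45 in *Smchd1* del/del and −0.37 in control. *Kank1*, an actin regulator, had −1.51 in *MommeD43-GFP*, 0.73 in *Smchd1* del/del and 0.66 in control. Counting errors were 0.63 at *Gstcd* and 0.69 at *5730507C01Rik*.

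The difference between *MommeD43-GFP* and control followed the CpG content of the promoter peak. Its median was −0.02 in the 6254 promoter peaks with a CpG ratio under 0.2, −0.03 at 0.2 to 0.4, −0.06 at 0.4 to 0.6, −0.10 at 0.6 to 0.8 and −0.16 in the 1291 peaks with a ratio over 0.8. Peaks above control made up 46.2% of the class under 0.2 and 22% of the class over 0.8. In other autosomal peaks the same medians were 0.03, 0.01, −0.03, −0.07 and −0.10. In *Smchd1* del/del against control the promoter peaks had −0.05, −0.05, −0.05, −0.03 and −0.07, with no such order, while the other peaks had −0.02, −0.05, −0.07, −0.11 and −0.11.

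The lowest and highest CpG classes kept this order within classes of level. Between levels of 0 and 1 the *MommeD43-GFP* minus control median was −0.01 at a CpG ratio under 0.2 and −0.19 over 0.8, between 1 and 2 it was −0.01 and −0.17, and between 2 and 3 it was 0.00 and −0.14. At 3 and over it was −0.07 and −0.10. GC content moved with the CpG ratio, from a median of 49.0% in the lowest class to 68.7% in the highest, and the part of GC-dependent differences between libraries in this result was not tested.

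**Figure D5:**
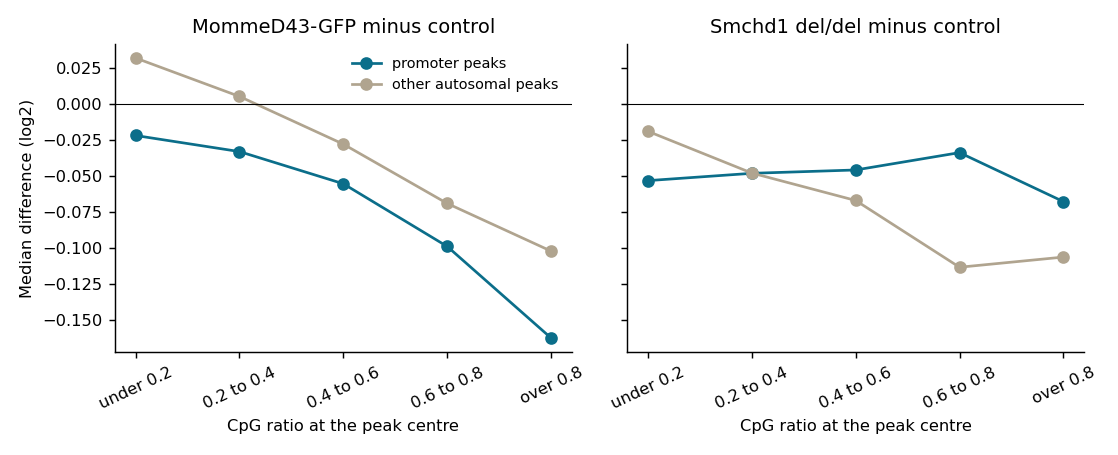
Median difference (log2, vertical axis) by CpG ratio of the 300 bases at the peak centre (horizontal axis) for promoter peaks and other autosomal peaks. In *MommeD43-GFP* minus control (left) the promoter peaks ran from −0.02 under 0.2 to −0.16 over 0.8, whereas in *Smchd1* del/del minus control (right) they lay between −0.03 and −0.07.

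In both mutants against control, promoter peaks with a core match had higher medians than those without, in length classes from 600 to 10000 bp. The comparisons share the control column. Between 900 and 1500 bp the *Smchd1* del/del minus control median was 0.24 in 88 promoter peaks with a match, of which 70.5% were above control, and −0.04 in promoter peaks without. Between 1500 and 3000 bp it was 0.09 in 292 promoter peaks with a match and −0.06 in those without. Other autosomal peaks with a match had higher medians, 0.31 at the shorter length and 0.23 at the longer. Between 3000 and 5000 bp the median was 0.05 in promoter peaks with a match and −0.06 in those without, and between 5000 and 10000 bp it was −0.06 with a match and −0.10 without. Other peaks with a match had 0.11 and 0.02 at these lengths. In *MommeD43-GFP* against control the median was 0.36 in promoter peaks of 600 to 900 bp with a match and −0.04 in those without. In *Smchd1* del/del against control these medians were 0.27 and −0.05. Between 1500 and 3000 bp the *MommeD43-GFP* minus control median was 0.04 in promoter peaks with a match and −0.05 in those without. It was 0.11 in other peaks of that length with a match. Between 5000 and 10000 bp it was −0.06 in promoter peaks with a match and −0.07 in those without.

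Gene groups differed first in how many of their genes had a promoter peak at all. Cyclins and cyclin-dependent kinases had one at 18 of 22 genes (81.8%), glycolysis at 13 of 16 (81.2%), CTCF and cohesin with its regulators at 21 of 26 (80.8%) and cytosolic ribosomal proteins at 57 of 74 (77.0%), against 61.9% of all eligible genes. At the low end stood cytochromes P450 with 32 of 80 (40%), replication-dependent histones with 26 of 67 (38.8%), keratins and keratin-associated proteins with 35 of 110 (31.8%), defensins with 20 of 64 (31.2%) and taste and trace amine receptors with 10 of 53 (18.9%). Many genes of these groups lie in arrays of similar copies, where reads may be hard to place. Ribosomal protein genes had a median level of 2.21 over 74 peaks, and cytochromes P450 one of −0.49 over 41 peaks.

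Groups of ubiquitously used genes differed among themselves. The median difference of the ribosomal protein peaks was 0.00 in *MommeD43-GFP* against control and 0.05 in *Smchd1* del/del against control, beside −0.05 over all promoter peaks in both. *Rpl13* had 4.97 in *MommeD43-GFP*, 5.01 in *Smchd1* del/del and 4.80 in control. Glycolysis peaks had −0.08 in *MommeD43-GFP* against control and 0.02 in *Smchd1* del/del against control, and the highest of them, at *Eno1*, had 4.59 in *MommeD43-GFP*, 4.55 in *Smchd1* del/del and 4.64 in control. Cholesterol synthesis, with 18 peaks, had −0.09 in *MommeD43-GFP* against control and −0.12 in *Smchd1* del/del against control, and RNA polymerase II with the general factors, with 24 peaks, had −0.04 and −0.10 in these comparisons. In *Smchd1* del/del against control 1 of the 74 ribosomal protein peaks (1.35%) and 0 of the 26 glycolysis peaks were 2-fold higher. Over all promoter peaks the share was 1.43%, and over all peaks 3.31%, so these counts do not set the groups apart.

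Genes of the CTCF and cohesin machinery had 41 peaks with a median level of 0.29. *Ctcf* itself had 1.13 in *MommeD43-GFP*, 1.42 in *Smchd1* del/del and 1.46 in control. *Stag1*, a cohesin subunit, had 2.47 in *MommeD43-GFP*, 2.64 in *Smchd1* del/del and 3.03 in control at its highest peak. *Nipbl*, the cohesin loader, had 2.60 in *MommeD43-GFP*, 2.67 in *Smchd1* del/del and 2.50 in control. The median differences of the group were −0.07 in *MommeD43-GFP* against control and 0.04 in *Smchd1* del/del against control.

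Homeobox regulators were lower in *MommeD43-GFP* than the median promoter peak, whereas the 74 peaks of Sox, Fox, Tbx and Gata regulators were near it (−0.06). Homeobox and paired box genes outside the Hox clusters had 36 peaks at 28 of 65 genes, with a median *MommeD43-GFP* minus control difference of −0.15 and 22.2% of peaks above control. Their median CpG ratio was 0.50, against 0.27 over all promoter peaks. Of the 36, 0 were 2-fold lower, near the 0.293% of all promoter peaks. *Six5* had 4.33 in *MommeD43-GFP*, 4.38 in *Smchd1* del/del and 4.46 in control. In *Smchd1* del/del against control the group had a median of 0.00, and 1 peak was 2-fold higher (2.78%, against 1.43% of all promoter peaks). It lay at *Lhx2*, a cortical patterning factor, with −0.27 in *MommeD43-GFP*, −0.13 in *Smchd1* del/del and −1.25 in control.

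Secreted ligands and neurotransmitter receptor subunits had medians below that of all promoter peaks in both mutants. Wnt, Fgf, Bmp and hedgehog ligands (37 of 52 genes, 49 peaks) had −0.11 in *MommeD43-GFP* against control and −0.12 in *Smchd1* del/del against control. *Fgf17* had 5.03 in *MommeD43-GFP*, 4.97 in *Smchd1* del/del and 5.11 in control. Subunits of glutamate, GABA and acetylcholine receptors (34 of 50 genes, 42 peaks) had −0.14 in *MommeD43-GFP* against control and −0.10 in *Smchd1* del/del against control. Potassium channels (64 of 91 genes, 89 peaks) had −0.09 in *MommeD43-GFP* against control and −0.04 in *Smchd1* del/del against control. *Chrna4*, a nicotinic receptor subunit, had 2.23 in *MommeD43-GFP*, 2.41 in *Smchd1* del/del and 2.77 in control, whereas *Gabrg3*, a GABA receptor subunit, had 2.18 in *MommeD43-GFP*, 2.97 in *Smchd1* del/del and 2.14 in control.

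Among genes in tandem arrays the medians varied. Keratins and keratin-associated proteins had −0.24 in *MommeD43-GFP* against control and −0.31 in *Smchd1* del/del against control over 39 peaks, with 15.4% of them above control in *Smchd1* del/del. Replication-dependent histones had 22 peaks with −0.16 in *MommeD43-GFP* against control and 0.15 in *Smchd1* del/del against control. In *Smchd1* del/del 3 of them were 2-fold higher (13.6%), against 1.43% of all promoter peaks and 3.31% of all peaks. In *MommeD43-GFP* 1 was 2-fold higher and 1 lower (4.55% each), against 0.687% and 0.293% of all promoter peaks. Their median level was −0.16, below the 0.94 of all promoter peaks, and their median CpG ratio was 0.81. *Hist1h4c* had 0.10 in *MommeD43-GFP*, 1.31 in *Smchd1* del/del and 0.30 in control. Cytochromes P450 had −0.04 in *MommeD43-GFP* against control and −0.09 in *Smchd1* del/del against control, taste and trace amine receptors 0.01 and −0.09, and defensins −0.03 and −0.24. Histone genes are near-identical copies, so that reads could be shared between them.

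Clustered protocadherins, stochastically chosen neuronal surface identities whose promoters are known CTCF sites, had a promoter peak at 50 of 56 genes (89.3%). Their *Smchd1* del/del minus control median was 0.54 in the beta cluster (20 of 21 peaks above control), 0.31 in the alpha cluster (10 of 14) and −0.20 in the gamma cluster (5 of 17). In *MommeD43-GFP* against control it was 0.09 in the beta cluster (13 of 21 above control), 0.09 in the alpha cluster (9 of 14) and 0.14 in the gamma cluster (14 of 17), so the gamma cluster medians lay on opposite sides of control in the mutants. Imprinted genes had 58 peaks at 30 of 51 genes, with −0.06 in *MommeD43-GFP* against control and −0.01 in *Smchd1* del/del against control. *Peg3*, a paternally expressed zinc finger gene, had 3.62 in *MommeD43-GFP*, 3.75 in *Smchd1* del/del and 3.63 in control.

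Marker genes of several cell types had promoter peaks. Markers of neural stem cells had a peak at 6 of 8 genes, neurons 4 of 5, astrocytes 5 of 5, oligodendrocytes 4 of 5, endothelium and pericytes 3 of 5, fibroblasts 2 of 4 and microglia 2 of 5. Their median levels, over 3 to 9 peaks each, were 2.19 for neural stem cells, 1.22 for neurons, 0.88 for astrocytes, 2.3 for oligodendrocytes, 3.73 for endothelium and pericytes, −0.39 for fibroblasts and −0.99 for microglia. *Nes*, the intermediate filament of neural stem cells, had 2.95 in *MommeD43-GFP*, 3.04 in *Smchd1* del/del and 3.00 in control, and *Sox2*, a stem cell transcription factor, had 1.73 in *MommeD43-GFP*, 1.82 in *Smchd1* del/del and 1.93 in control. CTCF occupancy does not report whether a gene is transcribed, so no cell type was named from these peaks.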

How the data were processed

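CTCF ChIP-seq libraries (75-bp single-end reads) were processed by the authors. The submitters' processing notes name Trim Galore 0.4.4, cutadapt 2.9, FastQC 0.11.8, Bowtie2 2.3.4.1, SAMtools 1.7, R 4.2.0 and the build GRCm38.p5, and per the study's methods peaks were called and quantified in SeqMonk. The deposited table holds 225769 merged peaks and 3 value columns, 1 per genotype, each the log2 reads per M of a peak averaged over libraries by the authors. No column of a single library was used, and the input has no column analysed here. Because merging joins neighbouring peaks and values are not divided by length, long peaks have high levels.

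Starts came from GENCODE M21 and sequence from GRCm38. Differences of columns, a 2-fold threshold, medians and counts were computed in Python 3.11.15 with numpy 2.4.6, pandas 2.3.3, scipy 1.17.1 and matplotlib 3.10.9. No filter on low values was applied to the members. Reads per library were recovered from low values that were whole reads within 0.01, with 0 reads entered as 0.9 by the quantitation, and gave the counting errors, which cover counting only. The scripts were tested on simulated data. Core motifs were matched on both strands, and CpG ratios used the central 300 bases. Gene names came from the annotation.

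A peak took the gene with the nearest start. Named were the 15 highest peaks, per comparison the 10 furthest above and the 10 furthest below, if their level reached the members' median, the highest and most different peaks of the gene lists described, the 5 longest and the 5 of the smallest range among the 500 highest. *Eif3b*, the peaks ranked by level per kb or number of peaks, and the extremes of any level were added after their values were seen. Members and gene lists were chosen with earlier results of these data known. Alternatives were other centring, quantile normalization, level filter, distances, transcript types, fold thresholds, a pseudocount of 1 read per M, and leaving out the stretches or long peaks.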

Additional observations from a re-analysis of the deposited data

How the results depend on the processing

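No paired analysis was possible because the table holds 1 pooled column per genotype, and no library could be left out for the same reason. Medians below run in the order *MommeD43-GFP* minus control, *Smchd1* del/del minus control and *MommeD43-GFP* minus *Smchd1* del/del. They were −0.0276, 0.0106 and −0.0448 when columns were centred on all peaks, and −0.0294, 0.00518 and −0.0413 when centred on the 118757 autosomal peaks more than 10 kb from any start. They were −0.0608, −0.0570 and −0.0117 within 500 bp, −0.0694, −0.0675 and −0.0127 for peaks over a start, −0.0590, −0.0411 and −0.0245 with starts of protein_coding transcripts, −0.0660, −0.0329 and −0.0397 with 5′ ends of gene records, and −0.0426, −0.0372 and −0.0144 without peaks of 5 kb or more. Quantile normalization gave −0.0666 for *Smchd1* del/del minus control and 0.00948 for *MommeD43-GFP* minus *Smchd1* del/del. So the sign of the *Smchd1* del/del minus control median depended on centring, and that of *MommeD43-GFP* minus *Smchd1* del/del on quantile normalization.

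Counts at least 2-fold higher and lower moved under most settings. Not all settings counted the same number of promoter peaks, which was 17749 in the main one. It was 14286 at or above the median level of all peaks, 14414 within 500 bp and 10880 over a start. With protein_coding transcripts it was 11902 and with gene records 8603. For *MommeD43-GFP* against control they were 625 and 549 at 1.5-fold, 4 and 4 at 4-fold, 17 and 7 at or above the median level of all peaks, 25 and 22 over a start, 64 and 28 with protein_coding transcripts, 34 and 21 with gene records, and 0 and 1 with the pseudocount. The higher ones were 59 within 500 bp, and quantile normalization gave 84 higher and 87 lower. For *Smchd1* del/del against control the same settings gave 1020 and 967, 16 and 6, 80 and 22, 75 and 56, 156 and 66, 99 and 44, and 9 and 1, with 154 higher within 500 bp. For *MommeD43-GFP* against *Smchd1* del/del they gave 612 and 595, 1 and 6, 7 and 24, 22 and 30, 44 and 55, 25 and 37, and 1 and 5, with 46 higher within 500 bp. The gap in median level between promoter and other peaks was 1.52, and 0.25 when divided by length. For named peaks 207 values stayed within the counting error interval of the main value and 33 moved out of it. A change of sign was counted only at named peaks at least 2-fold apart, and 0 were found there. Depth limits weak peaks, where counting error reached 0.63 at *Gstcd*. Without single libraries, no difference could be set against the spread between cultures.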

Other observations

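Promoters richer in CpG more often had a promoter peak near their start. Among the 17534 RefSeq promoters of the eligible genes, 45.3% had one within 1000 bp of the start. The share was 33.5% of the 3004 promoters with a CpG ratio under 0.2, 40.5% at 0.2 to 0.4, 48.9% at 0.4 to 0.6, 49.0% at 0.6 to 0.8 and 50.2% of the 5593 with a ratio over 0.8. The 300 bases at the peak centre held the SP1 motif (GGGGCGGGG, searched on both strands like the others) in 2.43% of promoter peaks and 0.553% of other autosomal peaks, the ETS motif (ACTTCCGG) in 0.817% of promoter peaks and 0.346% of other peaks, and the NRF1 motif (GCGCATGCG) in 0.225% of promoter peaks and 0.0868% of other peaks. The NFY motif (CCAATCA) had the other order (3.08% of promoter peaks and 4.19% of other peaks), as did the TATA motif TATAAA (10.2% of promoter peaks and 12.8% of other peaks). SP1, ETS and NRF1 are known activators of CpG-rich promoters. Matches of short motifs depend on base composition, whose part was not tested.

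Several groups of ubiquitously used genes stood close to the share of all eligible genes with a promoter peak. These were mitochondrial ribosomal proteins (47 of 78), complex I and its assembly factors (28 of 44), proteasome subunits (24 of 38), splicing factors (28 of 45) and chaperones (45 of 71). RNA polymerase II and the general factors had fewer (19 of 39), but at a median level of 2.33. Complex I peaks held a core match in 21.6% of 37 peaks, against 8.598% of all promoter peaks. Solute carriers, the largest group, had a peak at 234 of 358 genes, with a median of −0.06 in *MommeD43-GFP* against control and −0.07 in *Smchd1* del/del against control.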
